A study of Mus musculus with 2 samples.

Results

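The CCAAT/enhancer-binding proteins (C/EBPs) were followed as the 6 genes named Cebpa, Cebpb, Cebpd, Cebpe, Cebpg and Cebpz, chosen by gene name from the 55414 genes of the deposited expression table. The table holds 1 RNA-seq library of NHOS cells, a mouse osteosarcoma line, transfected with IL10RB and 1 library of mock-transfected NHOS cells. IL10RB is the beta chain shared by the receptors of interleukin-10 and related cytokines, and both cultures grew in DMEM with serum and the selection drug G418. The labels give neither the construct, its promoter and species, nor whether the transfectant is 1 clone or a pool. With 1 library per group there was no test and no replicate check, and every difference below is one between 2 libraries.

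C/EBPs are transcription factors with a basic region that contacts DNA and a leucine zipper through which they pair, with each other or with other zipper proteins. C/EBP beta and C/EBP delta, the products of Cebpb and Cebpd, respond early to cytokines such as interleukin-6, act in the acute-phase response and at the start of fat cell differentiation, and in osteoblasts act with Runx2 on the osteocalcin gene. C/EBP alpha acts later, in differentiation and growth arrest, C/EBP epsilon acts in granulocytes, and C/EBP gamma lacks a strong activation domain and works through its partners, Atf4 among them. Cebpz shares the name but not the zipper: its product belongs to the CCAAT-binding factor family, whose yeast relative Noc1 (Mak21) acts in assembly of the large ribosomal subunit.

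Promoter sequences are shown for Cebpb and Cebpg, which were both lower in the transfectant library and have entries in the RefSeq promoter table, as has Cebpa. Each sequence runs 5′ to 3′ over 300 bases, from 250 before to 50 after the RefSeq start of the gene, in build GRCm38.p6. That of Cebpb is at chr2:167688665-167688964 on the plus strand, with capitals marking TGACG (the cAMP response element core, here on either strand) and TATAAA (the TATA box). That of Cebpg is at chr7:35056517-35056816 on the minus strand, with capitals marking CCAAT boxes, which both read ATTGG on the strand shown.
Cebpb: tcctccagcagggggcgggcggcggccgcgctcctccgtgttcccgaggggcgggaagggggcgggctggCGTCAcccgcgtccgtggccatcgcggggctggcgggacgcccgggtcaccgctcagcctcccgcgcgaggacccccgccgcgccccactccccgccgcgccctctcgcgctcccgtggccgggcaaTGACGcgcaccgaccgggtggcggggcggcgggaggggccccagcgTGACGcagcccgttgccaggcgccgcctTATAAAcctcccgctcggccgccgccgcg
Cebpg: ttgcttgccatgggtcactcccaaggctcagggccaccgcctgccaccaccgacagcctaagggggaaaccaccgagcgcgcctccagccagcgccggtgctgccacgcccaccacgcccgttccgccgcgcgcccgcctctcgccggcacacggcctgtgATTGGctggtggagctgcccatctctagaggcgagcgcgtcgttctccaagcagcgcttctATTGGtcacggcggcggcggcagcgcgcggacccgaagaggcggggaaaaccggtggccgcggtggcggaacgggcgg

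The 2 promoters differed in the motifs they hold. Motifs were searched on both strands, and each was also counted in all 32851 promoters of the table. Cebpb held TGACG at 3 places (20.8% of all promoters hold it), from -180 to -176, from -53 to -49 and from -7 to -3 relative to the start, and TATAAA from 22 to 27 after it (13.6% of all promoters). In the Cebpa promoter TATAAA lies before the start, from -30 to -25. Whether the Cebpb match acts as a TATA box was not tested, and all positions depend on the RefSeq start used. Cebpb also held the GC box GGGCGG at 5 places, a pair of which overlap, and 80.7% of its bases were G or C. Cebpg held CCAAT at -89 to -85 and at -28 to -24 (37.4% of all promoters) and GGGCGG once (35.7%). Neither of these windows held the C/EBP site TTGCNNAA (10.8% of all promoters), the amino acid response element TGATGNAA (3.97%) or the STAT site TTCNNNGAA (8.30%), which says only that these letters are not in the windows.

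The estimated counts summed to 23898112 in the transfectant library and 18766040 in the mock library. Il10rb was at 1641 counts in the transfectant and 484 in mock, a ratio of 2.57 (95% counting interval 2.32 to 2.85), in the direction of the labels. All 9 osteoblast markers examined were past 50 counts in at least 1 library, Runx2, Sp7 and Alpl among them. Levels below are CPM (counts scaled to a common library size) after scaling by TMM, a library-size correction, and intervals are exact 95% intervals that cover counting error only. A gene was counted as higher or lower when its log2 fold, taken on CPM plus 0.5, passed 2-fold, and genes under 50 counts in both libraries were left out of such counts. By that rule 4 of the 6 C/EBP genes could be called: 3 were lower in the transfectant (Cebpb, Cebpg and Cebpz), 1 was higher (Cebpd), and Cebpa and Cebpe were under the floor. Among all 11952 genes past the floor, 11.9% were lower and 19.7% higher. In bulk samples such as these, fewer cells of a type and less RNA per cell cannot be told apart.

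**Figure D1:**
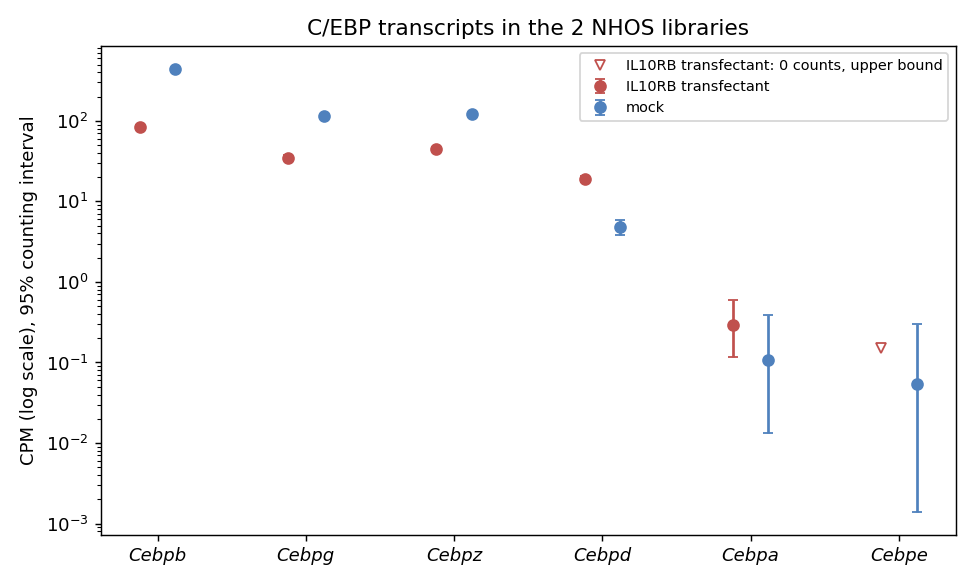
Level of each C/EBP gene (vertical axis, CPM on a log scale) in the IL10RB transfectant library and the mock library, with 95% counting intervals and, for Cebpe with 0 counts in the transfectant, the upper bound of its interval. Cebpb, Cebpg and Cebpz lie lower in the transfectant and Cebpd lies higher, while Cebpa and Cebpe lie under 1 CPM in both.

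Cebpb was the most abundant C/EBP transcript in both libraries and had the largest difference of the 4 called genes. It had 2069 counts in the transfectant and 8152 in mock, or 85.1 CPM (81.5 to 88.9) against 442 CPM (432 to 452). The 2 intervals are far apart, and the level was 5.19-fold lower in the transfectant (4.95 to 5.45). Of the 11952 genes past the floor, 116 (0.971%) had a lower log2 fold than Cebpb. Among 731 genes that the table annotates as DNA-binding transcription factors, Cebpb stood at rank 19 by TPM (the deposited level, which is scaled for gene length) in the transfectant and at rank 3 in mock, and 14 of them had a lower fold. In that class 15.2% passed 2-fold downwards and 16.3% upwards.

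In the deposited table Cebpb (ENSMUSG00000056501.4) takes up bases 167530835 to 167532338 of chromosome 2, plus strand, in a genome build not stated there. It overlaps 908 bases of the span of Tmem189 on the opposite strand, and its deposited counts were fractional (2069.28 in the transfectant and 8151.99 in mock), which a count of whole reads for a single gene would not give. Tmem189 had 71.5 CPM in the transfectant and 122 CPM in mock. Counted together, the 2 genes were 3.60-fold lower in the transfectant (3.47 to 3.74). Of the 10 nearest genes past the floor on either side, which reach 491 kb away, 1 was higher and 3 were lower, with a median log2 fold of 0.10. The median was -0.14 for the 961 genes past the floor on chromosome 2 and 0.07 for all genes.

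Cebpg, the partner of other zipper proteins, was lower as well. It had 849 counts in the transfectant and 2114 in mock, or 34.9 CPM (32.6 to 37.4) against 115 CPM (110 to 120), and was 3.28-fold lower (3.03 to 3.56). Of all genes past the floor, 3.21% had a lower fold. Its rank among the 731 transcription factors was 130 in the transfectant and 37 in mock. Cebpg (ENSMUSG00000056216.10, minus strand of chromosome 7, 34745847 to 34755998) is spanned in part by 3 other genes, none of which had more than 4 counts in a library. Of its 10 nearest neighbours 1 was higher and 3 were lower, with a median log2 fold of -0.07, and Pepd, which lies 1.71 kb away and encodes a proline dipeptidase, was at a ratio of 1.39.

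Cebpz, the member without a zipper, had 1098 counts in the transfectant and 2245 in mock. These are 45.2 CPM (42.5 to 47.9) and 122 CPM (117 to 127), a 2.69-fold lower level in the transfectant (2.51 to 2.90). Cebpz (ENSMUSG00000024081.10) lies on the minus strand of chromosome 17 from 79226435 to 79244495, and its end overlaps 1301 bases of Cebpzos on the plus strand. Cebpzos differed the other way, at 568 counts in the transfectant and 232 in mock, a ratio of 1.86 (1.59 to 2.17). Strand-specific counting is not stated, so reads of the 2 genes cannot be told apart where they overlap. The deposited counts of both were whole numbers, unlike those of Cebpb. Counted together they were 1.96-fold lower (1.84 to 2.09), which does not pass 2-fold. Ndufaf7, whose start lies 0.07 kb beyond the other end of Cebpz, was at a ratio of 1.15. Of the 10 nearest neighbours of Cebpz 1 was higher and 2 were lower, with a median log2 fold of -0.02.

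Cebpd alone was higher. It had 463 counts in the transfectant and 88 in mock, or 19.0 CPM (17.3 to 20.9) against 4.77 CPM (3.83 to 5.88), with intervals that do not touch. The ratio was 3.99 (3.17 to 5.07). Of all genes past the floor, 7.26% had a higher fold, as had 44 of the 731 transcription factors. Its rank among these by TPM was 354 in the transfectant and 621 in mock.

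Cebpd (ENSMUSG00000071637.6, plus strand of chromosome 16, 15705150 to 15708895) overlaps 1808 bases of the span of Spidr, a DNA repair gene on the opposite strand. Its counts were fractional too (463.42 in the transfectant and 87.53 in mock). Spidr had 1252.58 counts in the transfectant and 826.47 in mock, a ratio of 1.15 (1.05 to 1.26), and per kilobase it was at 198 and 130 counts against 124 and 23.5 for Cebpd. The sum of both genes was 1.42-fold higher in the transfectant (1.31 to 1.55), which is under 2-fold. That sum also holds the reads of Spidr alone, and how reads were split between the 2 genes is not stated. In the GRCm38 annotation (GENCODE M21) the exons of the 2 genes share 562 of 3746 bases of Cebpd, while Cebpb shares 312 of 1504 with Tmem189 and Cebpz 171 of 4658 with Cebpzos.

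Genes around Cebpd and along its chromosome tended to be higher as well. Of the 393 genes past the floor on chromosome 16, which also carries Il10rb, 30.5% passed 2-fold upwards and 5.09% downwards, and the median log2 fold was 0.51. The 10 nearest neighbours of Cebpd had a median of 0.51 too, with 2 higher, the replication helicase gene Mcm4 (a ratio of 2.14) and the phosphatase gene Ppm1f (3.22), and 0 lower. The log2 fold of Cebpd on the same scale was 1.89. The part of a chromosome-wide difference in the value of Cebpd, or in the ratio of 2.57 of Il10rb, was not tested.

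Cebpa and Cebpe were at the edge of detection. Cebpa (ENSMUSG00000034957.11, plus strand of chromosome 7, 34818718 to 34821353) had 7 counts in the transfectant and 2 in mock, a ratio of 2.66 with an interval of 0.506 to 26.2 that covers either direction. Cebpe (ENSMUSG00000052435.8, minus strand of chromosome 14, 54947817 to 54949631) had 0 counts in the transfectant and 1 in mock. A count of 0 allows up to 0.123 CPM in the transfectant, taking 3 counts as the limit, and the exact interval drawn in the plot of levels ends at 0.152 CPM. No difference was detectable at this depth for either gene. In counts per kilobase, Cebpa was at 2.67 in the transfectant and 0.762 in mock, against 124 and 23.5 for Cebpd.

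**Figure D2:**
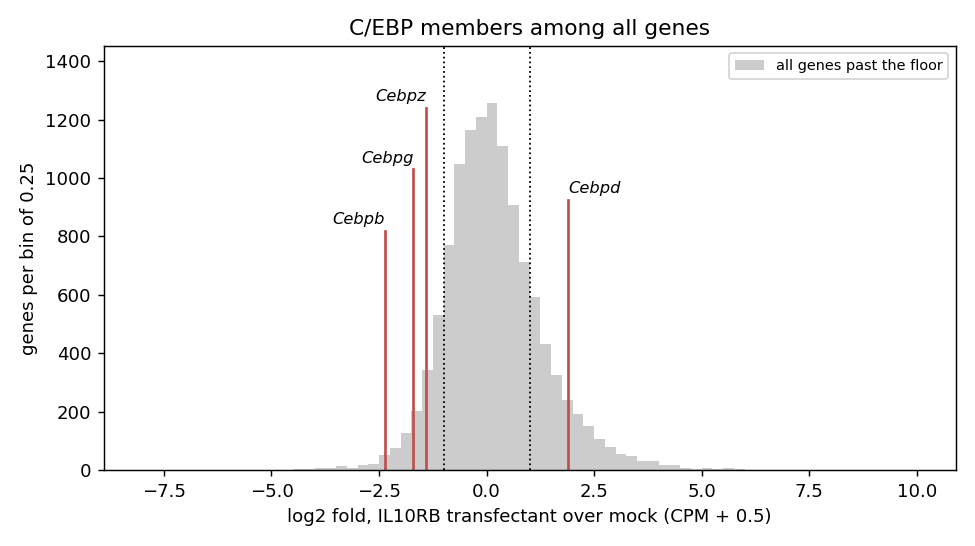
Histogram of the log2 fold, IL10RB transfectant over mock, on CPM plus 0.5 for the 11952 genes past the floor (vertical axis, genes per bin), with the 4 callable C/EBP genes as vertical lines and 2-fold as dotted lines. Cebpb at -2.37, Cebpg at -1.70 and Cebpz at -1.42 lie left of the dotted lines, and Cebpd at 1.89 lies right of them.

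The summed level of the 6 transcripts was 180 TPM in the transfectant and 823 TPM in mock, and its make-up differed. Cebpb made up 65.6% of it in the transfectant and 78.8% in mock. Cebpd made up 3.85% in the transfectant and 0.207% in mock. Cebpg was at 13.6% and 10.1%, and Cebpz at 16.9% and 10.8%, transfectant against mock. Without Cebpz, which lacks the zipper, the other 5 members summed to 150 TPM in the transfectant and 734 TPM in mock. Of that sum Cebpb made up 78.9% in the transfectant and 88.4% in mock, Cebpg 16.4% and 11.3%, and Cebpd 4.63% and 0.232%. In TPM, Cebpb exceeded Cebpd 17.0 times in the transfectant and 380 times in mock, and in counts per kilobase of gene length 11.1 times and 231 times, so Cebpb was the more abundant in both libraries on either scale. Cebpb over Cebpg stood at 4.82 in the transfectant and 7.81 in mock in TPM, and at 7.63 and 12.1 in counts per kilobase.

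**Figure D3:**
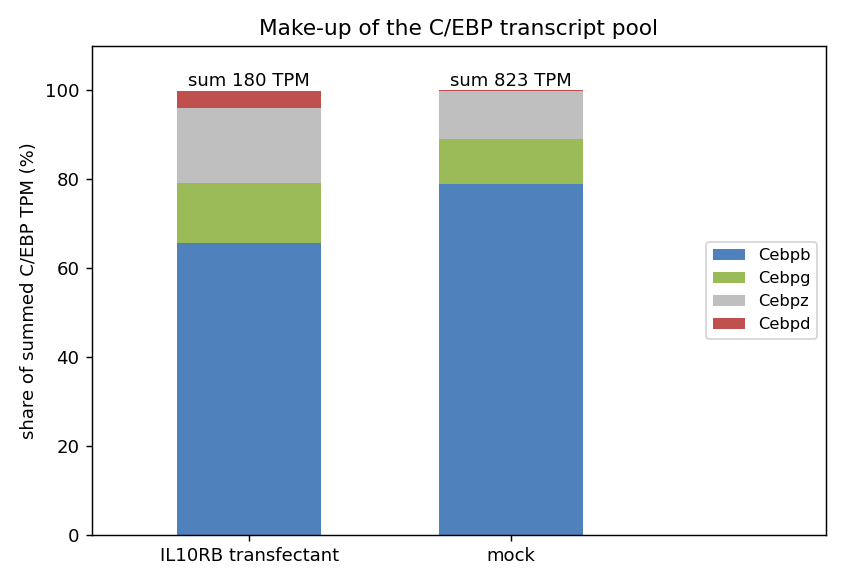
Share of each C/EBP gene in the summed TPM of the 6 genes (vertical axis, percent) in the IL10RB transfectant and mock libraries, with the sum above each bar; Cebpa and Cebpe are too small to draw. The Cebpd share is 3.85% in the transfectant against 0.207% in mock, while Cebpb is the largest part of both bars.

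Zipper partners of the C/EBPs and related zipper factors, taken as 1 list, were mostly lower. Of 12 such genes 10 were past the floor, of which 6 were lower and 1 higher in the transfectant. The list's median log2 fold was -1.37 against 0.07 for all genes. In the class of DNA-binding transcription factors 15.2% were lower and 16.3% higher. Among all genes past the floor 11.9% were lower and 19.7% higher. Ddit3, which encodes CHOP, a C/EBP relative that pairs with C/EBP beta and keeps it from its usual sites, had 667 counts in the transfectant and 2548 in mock and was 5.03-fold lower (4.62 to 5.49). Cebpb over Ddit3 in TPM was thus close in the 2 libraries, at 2.25 in the transfectant and 2.35 in mock. Atf4, the effector of the integrated stress response, was at 186 CPM in the transfectant and 456 CPM in mock, 2.45-fold lower (2.36 to 2.54), and exceeded Cebpg in TPM 5.84 times in the transfectant and 4.25 times in mock (12.4 and 9.29 times in counts per kilobase).

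Other genes of this list ranged widely. Atf5 was 7.27-fold lower (5.45 to 9.85), Atf3, a stress-induced repressor, 5.08-fold (4.01 to 6.49), and Atf2 2.77-fold, and Nfil3 was at 49.7 CPM in the transfectant and 149 CPM in mock. Batf, which pairs with Jun proteins and with C/EBP beta, went the other way, at 606 counts in the transfectant and 36 in mock, a ratio of 12.8 (9.12 to 18.4). Batf2 had 41 counts in the transfectant and 0 in mock, at least 10.4-fold higher with a limit of 3 counts for mock, while the exact interval of the ratio starts at 8.06. Batf3 was at a ratio of 0.665. Of the clock-linked factors, Dbp was at a ratio of 1.74 and Tef at 1.35, and Hlf had 0 counts in the transfectant and 3 in mock.

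Inputs to Cebpb and Cebpd transcription were nearer to the background. Of 14 such genes 13 were past the floor, and the median log2 fold was -0.24. Of the 13, 3 were lower and 1 higher, where 11.9% of all genes past the floor were lower and 19.7% higher. The 3 lower inputs were Creb1, which binds cAMP response elements (2.80-fold, 2.57 to 3.06), Klf4 (3.04-fold) and Egr2 (3.15-fold), the last 2 of which act ahead of Cebpb in fat cell differentiation. Binding of Creb1 to Cebpb was not tested. The endotoxin receptor gene Tlr4 was higher at a ratio of 2.11, which was under 2-fold on the calling scale with upper quartile scaling or a pseudocount of 2. The interleukin-6 family receptor chain Il6st (1.13) and Stat3 (0.848), which carries that signal to both genes, were within 2-fold, as was Socs3 (0.578), which passed 2-fold downwards with centring on gene length and GC content. Of the other chains of that family, Lifr was at 1.70 (2.41 in TPM) and passed 2-fold upwards with the deposited TPM and with that centring. Osmr was at 0.597, but at 1.11 in TPM. Among 10 regulators of C/EBP protein 2 were higher, near the share of 19.7% for all genes, and 0 were lower, where that share is 11.9%. Their median was -0.06, and 0.12 with a floor of 200 counts. The 2 higher regulators were the kinase Mapk3 (ERK1), which phosphorylates C/EBP beta, at 3.27 (2.97 to 3.62), and Trib2, which promotes breakdown of C/EBP alpha, at 2.41 (2.05 to 2.85). RNA levels give no measure of C/EBP protein or of the isoforms made from Cebpb by use of alternative start codons.

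Genes listed as targets of the family moved in different directions. Action of C/EBPs on the listed genes was not tested. The lists were chosen with earlier results of these data known. Amino acid stress genes were listed as targets of Atf4, which can act with C/EBP beta, C/EBP gamma or CHOP. Of these 17 genes 12 were lower by at least 2-fold and 0 were higher. The median of their log2 folds was -1.81. Among all genes past the floor 11.9% were lower and 19.7% higher. The cystine transporter gene Slc7a11 was 23.1-fold lower, Trib3 18.7-fold, the cystathionine lyase gene Cth 12.8-fold (9.50 to 17.7), Aldh1l2 7.18-fold, the phosphatase subunit gene Ppp1r15a 4.86-fold and Asns, which encodes asparagine synthetase, 4.57-fold (4.42 to 4.72). Nupr1, Sesn2, Psat1, Vldlr and Ddit4 were within 2-fold. Of the osteoblast targets and partners past the floor 6 of 11 were higher, 5 within 2-fold and 0 lower, with a median of 1.95, which was 0.40 with a floor of 200 counts. The 12 listed genes summed to 3428 CPM in the transfectant and 3501 CPM in mock. The collagenase gene Mmp13 (14.5-fold, from 9 counts in mock), the bone matrix gene Ibsp (8.86-fold), the growth factor gene Igf1 (8.30-fold, 4.89 to 15.2, and 36.0-fold in the deposited TPM), which C/EBP delta activates in osteoblasts, and osteocalcin Bglap (5.64-fold) and Bglap2 (5.07-fold) were higher, as was Spp1 (4.05-fold). Runx2 itself was at a ratio of 1.32, Col1a1 at 1.32 and Dlx5 at 1.15, while Sp7 was at 0.907 and the abundant Alpl at 0.707 (0.697 to 0.717).

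Few acute-phase and inflammatory targets were expressed. Of 20, 5 were past the floor, and 3 of these were higher and 1 lower (19.7% and 11.9% among all genes), with a median of 1.06. The chemokine gene Ccl2 had 368 counts in the transfectant and 15 in mock, a ratio of 18.6 (11.1 to 33.6). Cxcl1 was at 2.75 (1.90 to 4.07), and the pattern recognition gene Ptx3 at 2.09 (1.96 to 2.23), while the prostaglandin synthase gene Ptgs2 was 3.44-fold lower (3.17 to 3.74). On the calling scale Cxcl1 was under 2-fold with a pseudocount of 2, and Ptx3 with upper quartile scaling or with centring on gene length and GC content. Cd14, also past the floor, was at a ratio of 2.09 (1.63 to 2.71) but just under 2-fold on the calling scale, at a log2 fold of 0.99. It passed 2-fold with total counts or a pseudocount of 0.1. Il6 had 7 counts in the transfectant and 9 in mock, Lcn2 had 1 and 7, and Hp, Saa1, Csf3 and Il1b had 0 counts in both.

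Genes of the adipogenic and granulocyte programmes, in which Cebpa and Cebpe act, were mostly under the floor. Of 19 adipogenic genes 6 were past the floor, with a median of 0.44, beside shares of 19.7% higher and 11.9% lower among all genes. Of the 6, 2 were higher (Lipe, at 7.82 CPM in the transfectant and 1.95 CPM in mock, and Ebf1, at a ratio of 2.27) and 0 lower. The abundant ones were the lipid synthesis genes Scd1 (245 CPM in the transfectant and 220 CPM in mock) and Fasn (215 and 135 CPM), which many cells express, both within 2-fold. Pparg had 4 counts in the transfectant and 0 in mock, and none of the 5 adipocyte markers passed the floor. Of 15 granulocyte and myeloid targets 3 passed, and their median of -1.27 became 5.09 with a floor of 200 counts, which leaves 1 gene, and 0 with no floor. Among them were Lyz2 at 626 counts in the transfectant and 5 in mock, and Mpo (3.66-fold lower) and Csf1r (3.13-fold lower, but under 2-fold on the calling scale with a pseudocount of 2), both at no more than 150 counts. The granule and calprotectin genes, Elane, Ltf and S100a8 among them, made up the 9 genes with 0 counts in both.

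Markers of other cell types were set beside these values. The 9 macrophage and myeloid markers summed to 42.8 CPM in the transfectant and 10.4 CPM in mock. Of the 4 past the floor 2 were higher (Lyz2 and Cd68) and 1 lower, where 19.7% of all genes were higher and 11.9% lower. Lyz2 had 626 counts in the transfectant and 5 in mock, Cd68 150 and 12, Cd14 240 and 87, and Csf1r 24 and 57. Of the other 5, Ptprc, which marks leukocytes in general, had 0 counts in the transfectant and 27 in mock, Spi1 had 0 and 3, Adgre1 had 0 and 1, and Itgam and Tyrobp had 0 in both. The part of such cells in the results above was not tested. Epithelial markers summed to 1.15 CPM in the transfectant and 41.4 CPM in mock, nearly all Krt14, with Epcam and Krt8 at 0 in both, and endothelial markers to 0.494 and 1.84 CPM with Cdh5 and Tek at 0 in both.

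Most of the listed nucleolar genes of ribosome assembly, the setting of the yeast relative of Cebpz, were lower, as was Cebpz. The list is mainly of large-subunit factors, while Nop14 and Noc4l act on the small subunit. Past 2-fold, 10 of 14 nucleolar genes were lower and none was higher (0), and the list's median log2 fold was -1.12. Among all genes past the floor 11.9% were lower and 19.7% higher. Noc2l and Noc3l, whose yeast counterparts bind in turn to Noc1 and Noc2, were 3.37-fold (3.26 to 3.48) and 3.52-fold lower, and Mak16 3.77-fold and the rRNA methyltransferase gene Nop2 3.71-fold. Noc4l (1.21), Bop1 (1.17) and Rrp1 (1.07) were not lower.

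**Figure D4:**
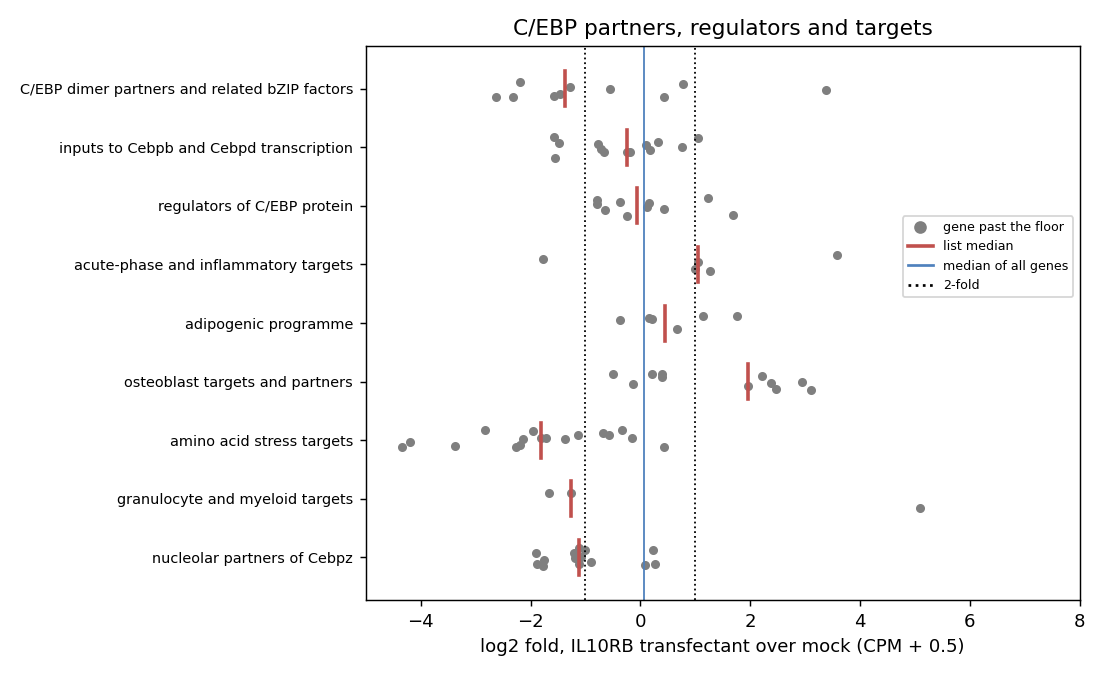
Log2 fold, IL10RB transfectant over mock, of each gene past the floor (points) in 9 lists of C/EBP partners, regulators and targets, with list medians as vertical bars, the median of all genes as a solid line and 2-fold as dotted lines. The amino acid stress median of -1.81 and that of zipper partners and related factors, -1.37, lie left of the line of all genes. The osteoblast median of 1.95 lies right of it.

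Genes closest to each C/EBP gene in both libraries were sought by distance in log2(TPM + 0.5) among 11095 protein coding genes, a likeness over only 2 libraries. Nearest to Cebpb (118 TPM in the transfectant and 649 in mock) were Asns (123 and 550 TPM), the glycyl-tRNA synthetase gene Gars (144 and 585 TPM) and the endoplasmic reticulum stress gene Herpud1 (105 and 517 TPM). Nearest to Cebpg were Sdad1, Ash2l and Tfrc, at distances of 0.04 to 0.15. Nearest to Cebpz were Golga7, Bhlhe40 and Nfil3, and nearest to Cebpd were Cep295nl, Coq8a and Zfp324, all within 0.09.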

How the data were processed

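Per the labels' protocols, RNeasy columns gave the RNA and a SMART-Seq v4 kit the cDNA libraries. The submitters' processing notes name DRAGEN; its version and role, the aligner settings, the genome build and the annotation are not stated in the sources. The table's coordinates are not those of GRCm38, since start and end agreed for 1494 of 52081 shared gene identifiers. The deposited table holds estimated counts, not normalised, of which 11.0% were fractional in each library, and the authors' TPM values, per the file headers.

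Estimated counts were rounded and scaled with TMM factors of 1.02 (transfectant) and 0.983 (mock) from edgeR 4.0.16 in R 4.3.3; DESeq2 1.42.0 gave size factors for an alternative, and neither was used for a test. Transcription factors were taken from the table's Gene Ontology column. The log2 fold is of CPM plus 0.5, transfectant over mock, called at 2-fold with at least 50 counts in 1 library; it understates differences of low genes. Printed ratios are of CPM without pseudocount. Intervals are exact, by Clopper-Pearson for a ratio and from the Poisson distribution for a level. Reads carry no molecular identifiers in the files used here. One count was worth 0.0411 CPM in the transfectant and 0.0542 in mock. Scripts ran in Python 3.11.15 with scipy 1.17.1, pandas 2.3.3 and numpy 2.4.6, and the procedure was tested on simulated counts. Members, lists, naming rule (every member, zipper partners, up to 6 genes of a list by absolute log2 fold, neighbours) and alternatives were chosen with earlier results of these data known; genes named as within 2-fold or at 0 and those beyond the rule were chosen after their values were seen. Promoters came from RefSeq (3 of 6 members matched).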

Additional observations from a re-analysis of the deposited data

How the results depend on the processing

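The 4 called C/EBP genes kept their direction and their side of 2-fold with DESeq2 size factors, total counts, upper quartile scaling, the deposited TPM, pseudocounts of 0.1 and 2 and a centring on GC content and gene length, the last chosen after seeing the data. Upper quartile scaling put the median log2 fold of all genes at -0.04 against 0.07, and gave -2.49 for Cebpb, -1.82 for Cebpg and -1.54 for Cebpz. The deposited TPM gave -2.45 for Cebpb and -1.54 for Cebpz. The centring, for which GRCm38 transcripts gave GC content for 99.8% of genes, gave -2.95 for Cebpb, whose transcript has 67.2% G or C, -1.51 for Cebpg and -1.27 for Cebpz. Summing each gene with the overlapping gene on the other strand, also chosen after seeing the data, gave -1.84 for Cebpb, 0.51 for Cebpd and -0.97 for Cebpz, the last 2 under 2-fold, since the sum holds the other gene's reads. The other 32 values of members moved by less than the half-width of their counting interval. Those of Cebpa and Cebpe among them say little, since the interval of Cebpa is wide (0.506 to 26.2). That of Cebpe starts at 0, which sets no limit. Without a floor 2316 genes were lower. A threshold of 1.5-fold gave 3666 higher and 2853 lower genes, one of 4-fold 772 and 219. Over the 9 lists, 11 of 162 counts moved by over 1.5 times and 6 of 81 medians moved by over the list's SD or changed sign, 3 of them to 0 without a floor. Shares of the pool from counts per kilobase were 70.5% (transfectant) and 84.1% (mock) for Cebpb and 6.33% and 0.364% for Cebpd. No paired analysis was possible because there was a single library of each kind, and none could be left out. Depth limits Cebpa and Cebpe, at 7 counts or fewer.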
